A study of Saccharomyces cerevisiae with 119 samples.

Results

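The genes described here encode 10 enzyme subunits of the mitochondrial tricarboxylic acid (TCA) cycle of Saccharomyces cerevisiae. They were chosen by systematic name from the 6685 genes of the count table, by a rule that uses no measured value. They were CIT1 (YNR001C), ACO1 (YLR304C), IDH1 (YNL037C), IDH2 (YOR136W), KGD1 (YIL125W), KGD2 (YDR148C), LSC1 (YOR142W), LSC2 (YGR244C), FUM1 (YPL262W) and MDH1 (YKL085W). All 10 passed the filter on low counts in both experiments, in which 6090 and 5748 genes were tested.

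In the first experiment, 8 diploid strains without deletions were grown in rich glucose medium, namely the laboratory strain S288c (labelled DBY8268) and YJM1129, M1, Y10, YPS163, YPS606, M22 and YJM308. Each culture was sampled unstressed and then split between 5% (v/v) ethanol for 30 min and 0.4 M NaCl for 45 min. There were 3 replicate cultures per strain and 71 libraries in all, since the Y10 ethanol group had 2. By the study's methods, stress was given by adding culture to an equal volume of fresh medium holding the stress. The unstressed sample was taken before this step. Each change from unstressed therefore also holds dilution into fresh medium and added growth time, which cannot be told apart from the stress. The title of 1 Y10 library names ethanol while its other labels name NaCl, and it was taken as NaCl. In the second experiment, the same treatments were given to wild-type YPS606 and to homozygous deletion mutants of it, with 4 replicates each and 48 libraries. The mutants were msn2/4, which lacks both MSN2 and MSN4, skn7, which lacks SKN7, and yap1, which lacks YAP1. Each strain stood for 1 genetic background, the mutants were made in YPS606 alone, and each stress was sampled at 1 time point, which differed between ethanol and NaCl. Each library held the RNA of a whole culture, so a change in all cells and a change in a share of the cells cannot be told apart, nor can fewer cells and less RNA per cell.

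Library totals ran from 7726935 to 17964847 counts in the strains and from 8174185 to 18253407 in the mutants, and each of the 10 genes had at least 277 counts in every library. The deleted genes checked the mutant labels. MSN2 had 0 to 6 counts in the 12 msn2/4 libraries and 889 to 2034 in wild type, MSN4 had 0 to 1 against 92 to 272, SKN7 had 0 to 4 in skn7 against 692 to 1883, and YAP1 had 0 to 7 in yap1 against 944 to 2277. In unstressed YJM308, the median of 312 genes on chromosome XI stood 0.77 above the mean of the strains on the log2 scale. Of the 10 genes, only MDH1 lies on that chromosome, and its unstressed level in YJM308 was 0.29 above the mean, which was not called.

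The TCA cycle oxidizes acetyl groups in the mitochondrial matrix, supplies reduced cofactors to the respiratory chain, and provides 2-oxoglutarate and other precursors for amino acid synthesis. In yeast growing on glucose most carbon is fermented to ethanol, and many genes of the cycle are held low by glucose repression. They are activated through the Hap2/3/4/5 complex, which binds CCAAT boxes and whose limiting subunit is Hap4, and the genes of the first steps also through the retrograde factors Rtg1 and Rtg3, which bind GTCAC boxes. Msn2 and Msn4 are general stress activators that bind AGGGG, the stress response element, and Yap1 activates oxidative stress genes through TTAGTAA-type sites.

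All 10 genes have 1 coding exon and overlap no other annotated gene (RefSeq annotation of genome build R64, S288c reference). CIT1 lies on chromosome XIV at 629622 to 631061, IDH1 on XIV at 557920 to 559002, ACO1 on XII at 735212 to 737548, IDH2 on XV at 580250 to 581359 and LSC1 on XV at 593057 to 594046. KGD1 lies on IX at 122689 to 125733, KGD2 on IV at 753675 to 755066, LSC2 on VII at 978036 to 979319, FUM1 on XVI at 47336 to 48802 and MDH1 on XI at 279123 to 280127. The 500 bases before each start codon were searched on both strands for 4 sets of letters. AGGGG (or CCCCT) was found before 8 of the 10 genes and in 34.1% of 6000 such windows genome-wide, and it was not found before ACO1 and IDH1. CCAAT (or ATTGG) was found before 8 of 10 and in 62.4% of windows, GTCAC (or GTGAC) before 6 of 10 and in 42.5%, and TTAGTAA (or TTACTAA) before CIT1 alone and in 11.8%. The windows of IDH2, LSC1, LSC2 and MDH1 reach 44, 31, 55 and 42 bases into a neighbouring gene. A match to these letters is a description of the reference sequence and not evidence of a bound site, and other strains may differ from the reference.

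The upstream sequences of 5 genes are printed as context for the mutant results below: CIT1, KGD1, KGD2 and MDH1, whose response to ethanol was smaller in the msn2/4 mutant, and ACO1, which has no AGGGG match and fell under ethanol. Each is 300 bases of RefSeq sequence (build R64), 5′ to 3′ on the strand of the gene, with matches to the 4 motifs in capitals. The CIT1 window is chrXIV:631162-631461 (minus strand), KGD1 is chrIX:122289-122588 (plus), KGD2 is chrIV:755167-755466 (minus) and MDH1 is chrXI:278723-279022 (plus), each covering bases 400 to 101 before the start codon. The ACO1 window is chrXII:737709-738008 (minus strand), bases 460 to 161 before the start codon.
CIT1: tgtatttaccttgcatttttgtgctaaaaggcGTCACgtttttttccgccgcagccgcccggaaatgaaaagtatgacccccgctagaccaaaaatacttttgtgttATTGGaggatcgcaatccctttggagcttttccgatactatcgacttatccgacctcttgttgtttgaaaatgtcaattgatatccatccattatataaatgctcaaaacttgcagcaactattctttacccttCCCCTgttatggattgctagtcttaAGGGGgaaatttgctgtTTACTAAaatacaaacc
KGD1: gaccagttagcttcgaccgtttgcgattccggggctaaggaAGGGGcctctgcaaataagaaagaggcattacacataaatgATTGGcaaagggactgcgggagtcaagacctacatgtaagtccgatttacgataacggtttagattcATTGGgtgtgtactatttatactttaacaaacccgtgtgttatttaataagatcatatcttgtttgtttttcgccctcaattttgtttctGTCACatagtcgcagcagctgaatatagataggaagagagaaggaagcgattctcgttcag
KGD2: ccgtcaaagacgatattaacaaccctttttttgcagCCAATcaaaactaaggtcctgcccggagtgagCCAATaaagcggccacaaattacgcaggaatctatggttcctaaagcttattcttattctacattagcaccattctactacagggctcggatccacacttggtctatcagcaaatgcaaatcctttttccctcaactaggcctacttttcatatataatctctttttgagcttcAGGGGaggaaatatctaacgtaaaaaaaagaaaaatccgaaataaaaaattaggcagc
MDH1: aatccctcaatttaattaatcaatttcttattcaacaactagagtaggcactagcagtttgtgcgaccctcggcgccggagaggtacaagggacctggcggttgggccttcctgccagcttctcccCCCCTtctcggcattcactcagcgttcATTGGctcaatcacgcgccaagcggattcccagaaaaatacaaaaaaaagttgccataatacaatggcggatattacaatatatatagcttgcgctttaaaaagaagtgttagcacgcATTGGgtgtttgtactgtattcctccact
ACO1: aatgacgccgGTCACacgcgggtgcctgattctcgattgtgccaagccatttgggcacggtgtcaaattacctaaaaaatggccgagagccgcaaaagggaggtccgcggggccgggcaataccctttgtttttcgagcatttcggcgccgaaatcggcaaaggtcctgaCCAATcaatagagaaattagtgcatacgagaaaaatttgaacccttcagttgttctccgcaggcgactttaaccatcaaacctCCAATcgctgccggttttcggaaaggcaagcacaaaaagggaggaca
CIT1 held 5 of these matches and was the only one of these genes with all 4 motifs, its AGGGG matches standing 159 and 134 bases before the start codon. The AGGGG match of KGD1 stood 359 bases before its start codon, that of KGD2 158 bases and that of MDH1 274 bases.

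**Figure D1:**
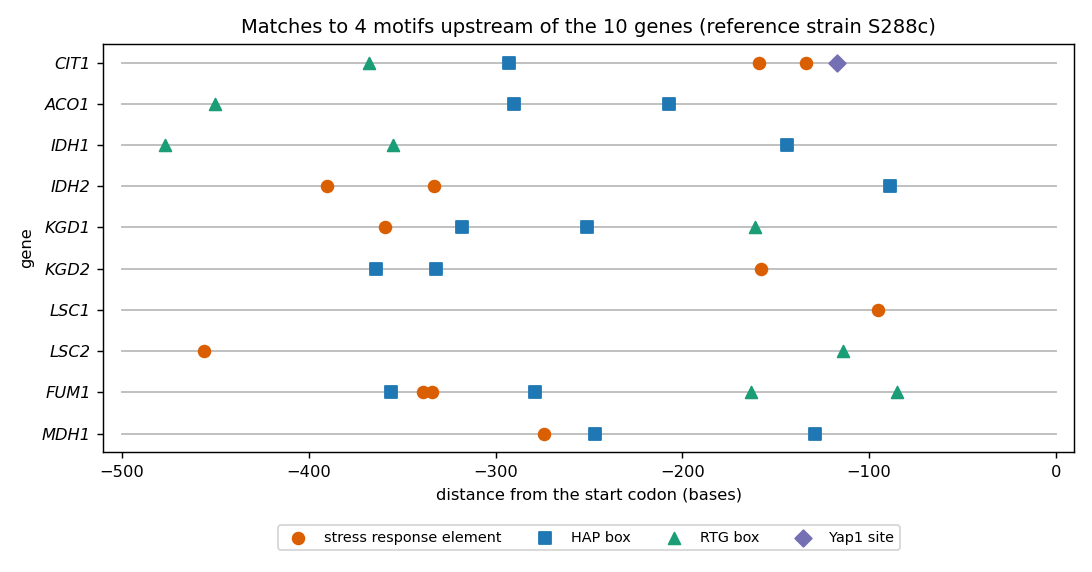
Positions of matches to 4 motifs (AGGGG stress response element, CCAAT HAP box, GTCAC RTG box, TTAGTAA Yap1 site, either strand) in the 500 bases before the start codon of each gene, in the S288c reference. The x axis is the distance from the start codon in bases; 8 of 10 genes have a stress response element match and ACO1 and IDH1 have none.

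Before stress, the genes differed several-fold in level. Levels are given as CPM (library counts scaled by TMM) and, where genes are compared with each other, as CPM per kilobase of coding length. Unstressed ACO1 (aconitase, which converts citrate to isocitrate) had the highest level per length, at 290.7 ± 129 CPM per kb (SD over the means of 8 strains). It was followed by IDH2 at 224 ± 73.7 and LSC1 at 171 ± 40.5. IDH2 encodes the catalytic and IDH1 the regulatory subunit of NAD-dependent isocitrate dehydrogenase, and LSC1 and LSC2 encode the alpha and beta subunits of succinyl-CoA ligase. FUM1 (fumarase), IDH1, MDH1 (mitochondrial malate dehydrogenase), CIT1 (citrate synthase, the entry step), KGD2 and KGD1 (E2 and E1 subunits of 2-oxoglutarate dehydrogenase) followed between 139 and 63.0 CPM per kb, and LSC2 was lowest at 43.5 ± 15.8. Each gene differed from its neighbour in this order by less than the sum of their SDs over strains.

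The order changed with stress. Under ethanol, CIT1 rose from the 7th to the 1st place at 389.6 ± 115 CPM per kb, and ACO1 went from the 1st to the 9th place at 111 ± 69.6. Under NaCl, IDH2 at 603.5 ± 183 and ACO1 at 562 ± 174 led the order. LSC2 was lowest in all 3 conditions. The paired subunits of succinyl-CoA ligase thus stood far apart in every condition, LSC1 being the 3rd of the 10 genes in each.

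Ethanol and NaCl both raised most of the cycle's genes, and they differed most at ACO1. Averaged over the 8 strains, a call being an FDR below 0.01 (edgeR's quasi-likelihood test, Benjamini-Hochberg adjustment over all genes tested) and a change of at least 1.5-fold, 6 of the 10 genes rose under ethanol and 1 fell, where 29.8% of all genes tested rose and 28.4% fell. Under NaCl 9 of 10 rose and 0 fell, where 18.8% of all genes rose and 20.9% fell. The median log2 change of the 10 genes was 0.68 under ethanol and 1.00 under NaCl, beside 0.05 and -0.06 over all genes. Both averages share the unstressed libraries.

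CIT1 changed most in both averages. Its libraries had from 49.3 to 205 CPM before stress (median 102, 24 libraries), from 339 to 941 under ethanol (median 565, 23 libraries) and from 99.7 to 756 under NaCl (median 368, 24 libraries). Every ethanol library of CIT1 thus stood above every unstressed library, whereas the NaCl and unstressed libraries overlapped across strains but not within any strain. CIT1 rose 5.14-fold under ethanol (log2 2.36 ± 0.055 SE, adjusted p = 5.3e-41) and 2.96-fold under NaCl (1.57 ± 0.053, adjusted p = 1.7e-32).

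FUM1 changed least in both. Its libraries had from 102 to 299.5 CPM before stress (median 205), from 116 to 564 under ethanol (median 243) and from 137 to 332 under NaCl (median 215). Across strains the groups overlapped, and neither log2 change reached 1.5-fold (0.28 ± 0.057 under ethanol and 0.13 ± 0.056 under NaCl).

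ACO1 was the gene that fell under ethanol, by 2.83-fold (log2 -1.50 ± 0.068, adjusted p = 2.8e-27). Its libraries had from 262 to 1208 CPM before stress (median 673), from 87.3 to 729 under ethanol (median 219) and from 701 to 2432 under NaCl (median 1247). Under NaCl it rose 2.05-fold (log2 1.03 ± 0.066). The direct comparison of the mean ethanol with the mean NaCl level put ACO1 5.79-fold lower under ethanol (log2 -2.53 ± 0.071, adjusted p = 1.2e-36).

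Of the other genes, MDH1 (log2 1.49 ± 0.052), KGD2 (1.23 ± 0.041), KGD1 (0.91 ± 0.047), LSC1 (0.76 ± 0.059) and IDH2 (0.60 ± 0.062) rose under ethanol. The IDH2 call was lost without replicate 1, at a log2 of 0.52. LSC2 and IDH1 had log2 changes of 0.52 and 0.30 under ethanol, short of 1.5-fold, LSC2 being called without replicate 3 (0.63). Under NaCl the largest rises after CIT1 were those of IDH2 (1.44 ± 0.062), IDH1 (1.16 ± 0.059) and LSC2 (1.15 ± 0.046), and LSC1, KGD1, MDH1 and KGD2 rose by 0.68 to 0.97.

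Compared directly with NaCl, the ethanol level was higher for 2 of the 10 genes and lower for 4, where 25.8% of all genes were higher and 23.3% lower. CIT1 was 1.73-fold higher under ethanol and MDH1 1.52-fold higher, the call for MDH1 being lost without the filter on low counts and without replicate 1 or 2 (log2 0.51 to 0.55). Besides ACO1, IDH1 (log2 -0.87), IDH2 (-0.84) and LSC2 (-0.64) were lower under ethanol than under NaCl. The genes that were lower under ethanol thus included those of the 2 steps from citrate to 2-oxoglutarate, ACO1, IDH1 and IDH2. KGD1, at a difference of 0.02 ± 0.047, was nearly at the same level in both stresses.

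Within single strains, 45 of the 80 pairs of gene and strain were called higher under ethanol and 9 lower, where the shares over all genes were 28.4% and 27.9%. The median over the 80 pairs was 0.71 and that over all genes 0.01. CIT1 and KGD2 rose in 8 of 8 strains, MDH1 in 7, LSC1 in 6, KGD1 and LSC2 in 5, IDH2 in 4, and IDH1 and FUM1 in 1. ACO1 fell in 7 of 8 strains and rose in 0. LSC2 and IDH2 also fell in 1 strain, S288c.

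**Figure D2:**
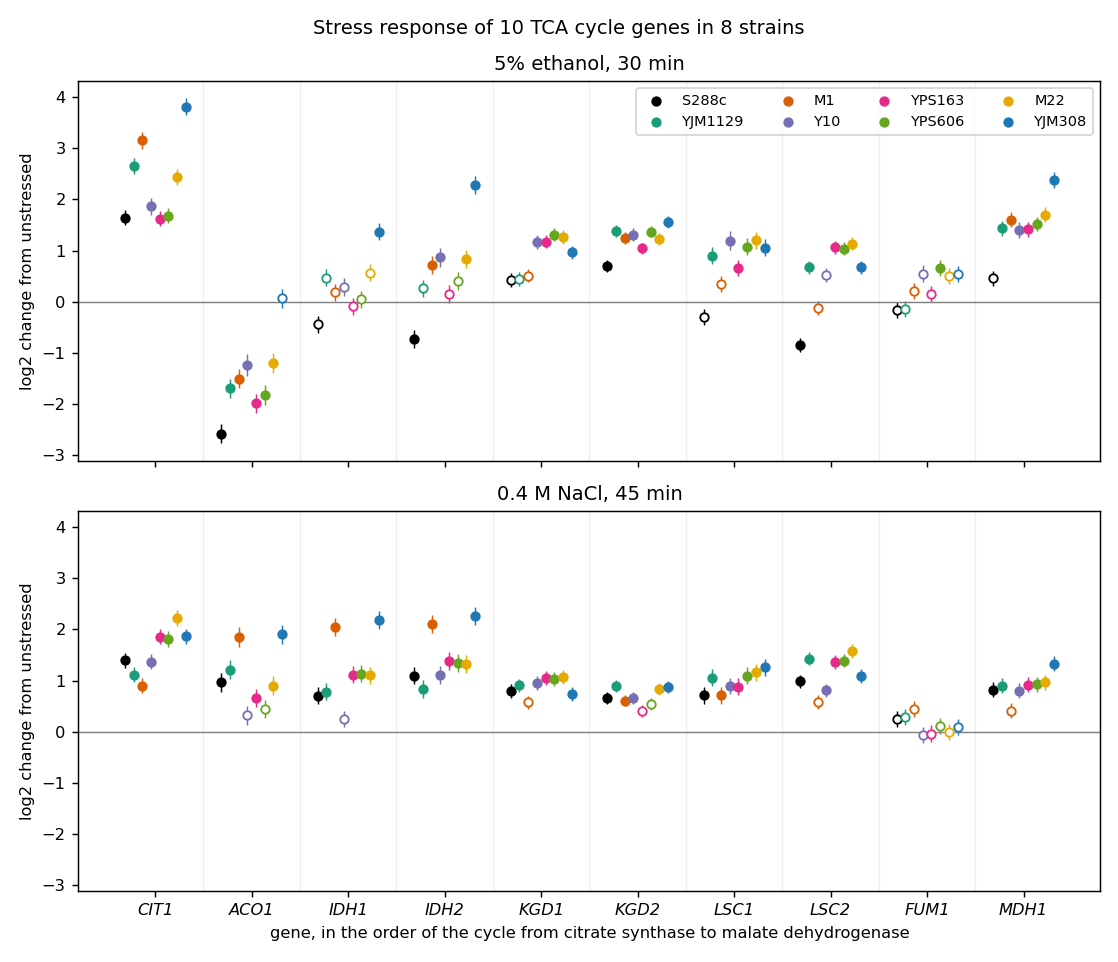
Log2 change (± SE) of each gene under ethanol (upper panel) and NaCl (lower panel) against the unstressed level of the same strain, with genes in the order of the cycle and 1 marker per strain; filled markers are called (at least 1.5-fold with an FDR below 0.01). Under ethanol CIT1 lies between 1.62 and 3.82 in the 8 strains and ACO1 between -2.59 and 0.06, whereas under NaCl both lie above 0 in every strain.

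The rise of CIT1 under ethanol was smallest in YPS163 at 3.07-fold, close to YPS606 and S288c at 3.21-fold and 3.12-fold, and largest in YJM308 at 14.1-fold. In S288c its libraries had 120, 112 and 107 CPM before stress and 352, 368 and 339 under ethanol. In YJM308 they had 66.01, 57.1 and 62.6 CPM before stress and 941, 770.0 and 909.7 under ethanol. YJM308 thus had the lower CIT1 level of the pair before stress and the higher one under ethanol, with no overlap between the strains in either condition.

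ACO1 fell most in S288c, from 740.4, 809 and 720.4 CPM to 115, 117 and 145 under ethanol, a 6.003-fold fall (log2 -2.59 ± 0.19). In YJM308 it had 625, 554 and 463 CPM before stress and 729, 571 and 418 under ethanol (log2 0.06 ± 0.18, adjusted p = 0.78). These YJM308 groups overlapped, while in each of the other 7 strains every ethanol library lay below every unstressed one. In those 7 strains the fall ran from 2.305-fold in M22 to 6.003-fold in S288c.

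**Figure D3:**
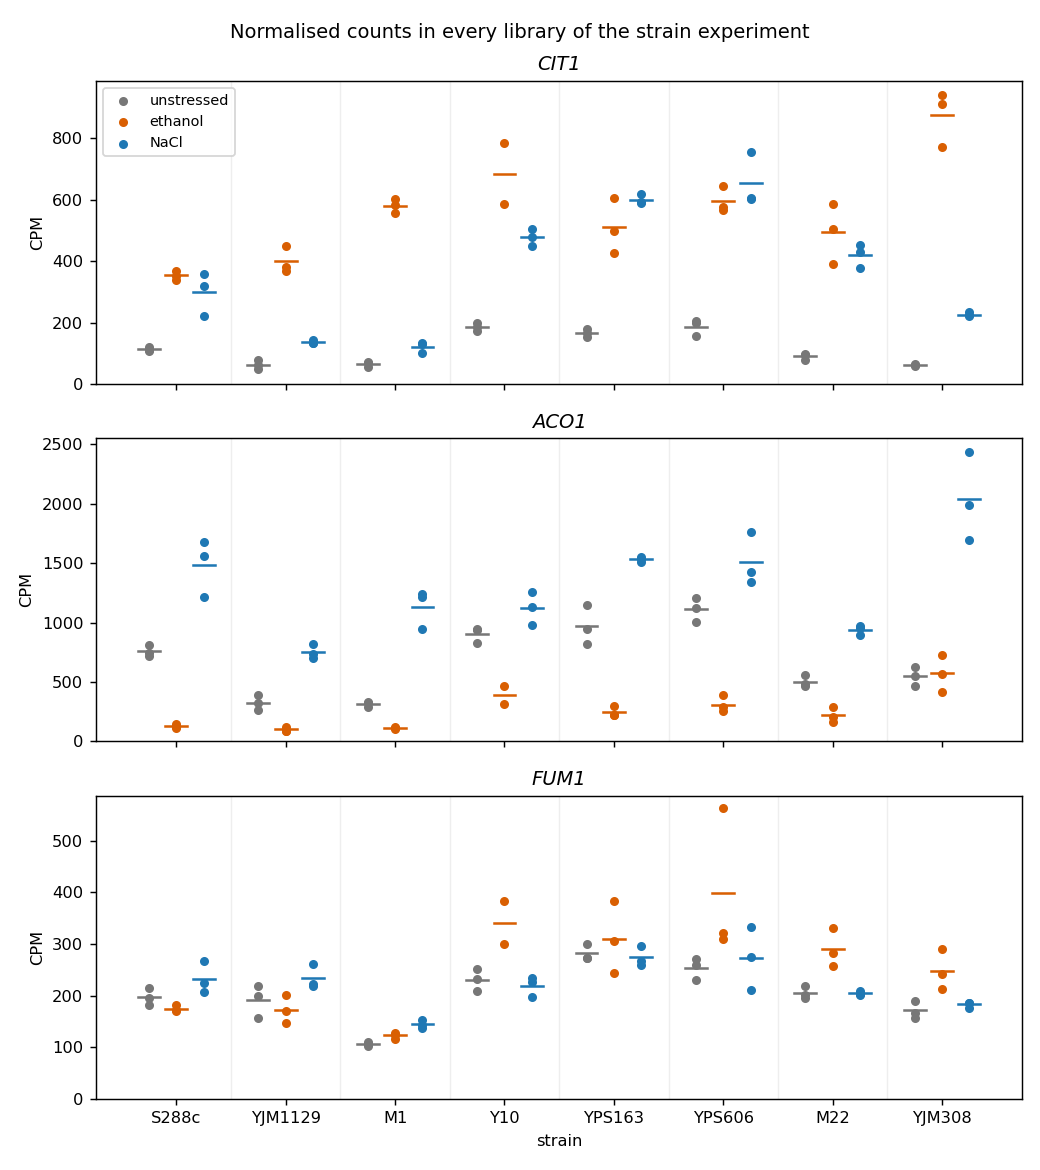
CPM of CIT1, ACO1 and FUM1 in each library of the 8 strains, unstressed, under ethanol and under NaCl; points are libraries and bars the group means. CIT1 in YJM308 goes from 57.1 to 66.01 CPM before stress to 770.0 to 941 under ethanol, and ACO1 in S288c falls to between 115 and 145 CPM.

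S288c had the lowest ethanol response of 9 of the 10 genes, the exception being CIT1, for which YPS163 was marginally lower. In S288c 2 genes rose under ethanol (CIT1 and KGD2) and 3 fell (ACO1, LSC2 and IDH2), where 24.7% of all genes rose and 24.1% fell in that strain. In YJM308 8 rose and 0 fell, where 27.3% of all genes rose. The CPM of the 10 genes summed to 2145 ± 138 (SD, n = 3) before stress and 1614 ± 32.5 under ethanol in S288c, and to 1651 ± 184 and 4484 ± 819 in YJM308. S288c was the strain in which the sum was lower under ethanol than before stress, and its groups did not overlap. In 6 of the other 7 strains the lowest ethanol library lay above the highest unstressed one, the exception being YPS163. The sums are not scaled by gene length, and over the strains ACO1 made up 33.9% of the unstressed CPM of the 10 genes. In S288c ACO1 fell from 740.4, 809 and 720.4 CPM to 115, 117 and 145. The lower S288c sum therefore follows ACO1 and is not a measure of the other genes.

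Within strains, FUM1 was called under ethanol in YPS606 (log2 0.66), where its libraries had 320.3, 309.5 and 564 CPM against 272, 259 and 231 unstressed. Replicate 3 stood far above the other ethanol libraries, and without it the log2 change was 0.32 (adjusted p = 0.12). This library also had the lowest TMM factor of the strain experiment, 0.51, and it stood apart for other genes in both directions. LSC1 was higher in it, at 664 CPM against 342 and 332, and MDH1 lower, at 241 against 345 and 364. With DESeq2's Wald test FUM1 was also called in Y10 (0.64) and YJM308 (0.63), and without replicate 3 in Y10 (0.62), YJM308 (0.72) and M22 (0.67).

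Under NaCl none of the 10 genes fell in any strain. Of the 80 pairs of gene and strain, 64 were called higher and 0 lower, where 16.8% of all pairs rose and 19.0% fell. CIT1, IDH2 and LSC1 rose in 8 of 8 strains, KGD1, IDH1, LSC2 and MDH1 in 7, ACO1 and KGD2 in 6, and FUM1 in 0. Between the strains the log2 rise varied least for KGD1 and KGD2, with a range of 0.50 for each, and most for IDH1, from 0.25 in Y10 to 2.18 in YJM308. The largest single rises were those of IDH2 in YJM308 (4.82-fold) and CIT1 in M22 (4.67-fold).

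In M1 the genes of the steps from citrate to 2-oxoglutarate rose most under NaCl. The rises of IDH2 (log2 2.11), IDH1 (2.05) and ACO1 (1.86) were above that of CIT1 (0.90), and LSC2, KGD1, FUM1 and MDH1, at 0.58, 0.57, 0.45 and 0.41, were not called. YJM308 had a like order at its top, with IDH2 (2.27) and IDH1 (2.18) above ACO1 (1.905) and CIT1 (1.87). CIT1 in M1 had 70.1, 56.6 and 68.4 CPM before stress and 99.7, 132 and 132 under NaCl, against 602, 557 and 582 under ethanol.

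To test whether a strain responded differently from the rest, the response of each strain was compared with the mean of the 8 strains, a mean that includes the strain itself. Under ethanol 17 of the 80 pairs differed, 7 higher and 10 lower, where 8.13% of all pairs were higher and 8.20% lower. S288c held 7 of the 10 lower values and YJM308 5 of the 7 higher ones. In these strains 14.7% of all genes were lower and 7.39% higher, respectively.

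In S288c the responses of LSC2 (log2 -1.37 ± 0.12 against the mean), IDH2 (-1.33 ± 0.16), ACO1 (-1.08 ± 0.18), LSC1 (-1.07 ± 0.16), MDH1 (-1.03 ± 0.14), IDH1 (-0.74 ± 0.16) and CIT1 (-0.72 ± 0.14) were lower than the mean. IDH1 lost its call without replicate 1, at -0.61. LSC2 had 87.7, 76.3 and 71.7 CPM in unstressed S288c and 46.3, 42.4 and 42.2 under ethanol, with no overlap. In M22, by contrast, LSC2 went from 59.2, 57.2 and 68.1 CPM to 135, 103 and 168.

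The largest difference from the mean was that of IDH2 in YJM308, which rose 3.22-fold more than the mean (log2 1.69 ± 0.17, adjusted p = 1.1e-11). It had 214, 176 and 192 CPM before stress and 1285, 845 and 725.5 under ethanol. In S288c IDH2 went the other way, from 409.7, 344 and 314 CPM to 222, 226 and 196. ACO1 (1.56 ± 0.18), CIT1 (1.46 ± 0.14), IDH1 (1.07 ± 0.16) and MDH1 (0.89 ± 0.13) also rose more in YJM308, all 5 calls being kept in every refit.

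The remaining differences under ethanol were single genes: CIT1 rose more in M1 (0.79) and less in YPS163 (-0.74) and YPS606 (-0.68), and LSC2 was lower in M1 (-0.64) and higher in M22 (0.62). The YPS606 call was lost without replicate 1 or 2 (to -0.51 at the smallest) and that of M22 without replicate 3 (0.52). KGD1, KGD2 and FUM1 were called different from the mean in no strain, though KGD2 was called in S288c without replicate 3 (-0.59) and KGD1 in YJM1129 without replicate 1 (-0.60). The values of these 3 genes lay between -0.53 (KGD2 in S288c) and 0.40 (KGD1 in YPS606).

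**Figure D4:**
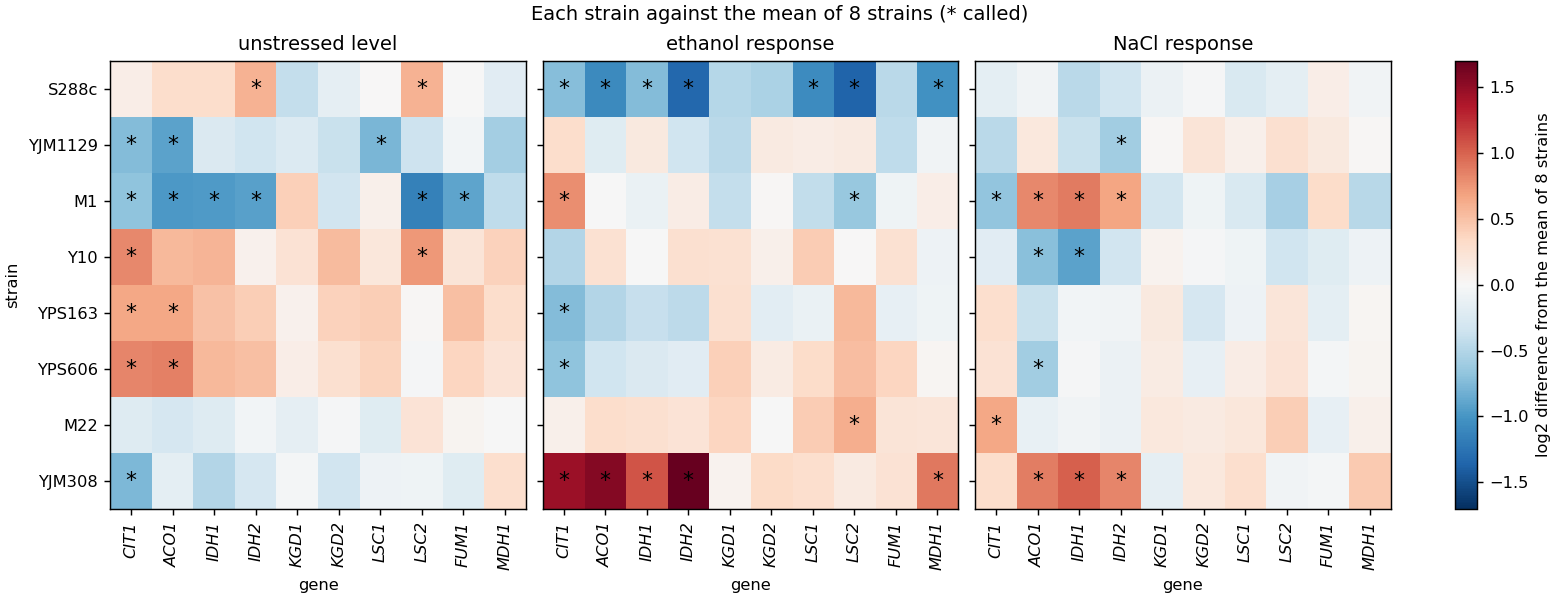
Log2 difference of each strain from the mean of the 8 strains, for the unstressed level, the ethanol response and the NaCl response of each gene; colour is the difference and an asterisk marks a call. Under ethanol 7 genes are lower in S288c and 5 higher in YJM308, and under NaCl the calls are mostly in ACO1, IDH1 and IDH2.

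Under NaCl 12 pairs differed from the mean, 7 higher and 5 lower, where 5.28% of all pairs were higher and 5.69% lower. Of the 12, 10 were values of ACO1, IDH1 or IDH2, and the other 2 were values of CIT1. YJM308 was higher for IDH1 (log2 1.02 ± 0.16), ACO1 (0.87) and IDH2 (0.83), where 1.71% of all genes were higher in that strain. M1 was higher for IDH1 (0.88), ACO1 (0.82) and IDH2 (0.67) and lower for CIT1 (-0.67), where 12.2% of all genes were higher. Y10 was lower for IDH1 (-0.92) and ACO1 (-0.71), where 4.14% of all genes were lower. The remaining values were those of CIT1 in M22 (0.66), IDH2 in YJM1129 (-0.59) and ACO1 in YPS606 (-0.59).

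The largest of these was IDH1 in YJM308, with 109, 84.9 and 87.9 CPM before stress and 394, 377 and 494 under NaCl. In Y10 IDH1 had 193, 218 and 181 CPM before stress and 271, 223 and 211 under NaCl, and these groups overlapped. Without the Y10 library whose title names ethanol, the differences in Y10 were -0.99 for IDH1 and -0.79 for ACO1, both called. The IDH1 calls in YJM308, M1 and Y10 were kept in every refit that could be made. All other NaCl differences were lost when at least 1 replicate was left out, including ACO1 in Y10 without any of the 3 (to -0.62 at the smallest) and ACO1 in YPS606, which was also lost with DESeq2 (-0.55) and with either other filter on low counts.

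Unstressed levels also differed between strains, in 18 of 80 pairs, 8 higher and 10 lower than the mean, where 6.54% of all pairs were higher and 4.67% lower. M1 was lower for 6 genes, LSC2 (log2 -1.15 ± 0.097), ACO1 (-0.97), IDH1 (-0.97), IDH2 (-0.92), FUM1 (-0.89) and CIT1 (-0.69), where 3.45% of all genes were lower in M1. YJM1129 was lower for ACO1 (-0.92), LSC1 (-0.78) and CIT1 (-0.73), where 4.68% of all genes were lower, and YJM308 was lower for CIT1 (-0.76). LSC2 in M1 had 21.2, 22.9 and 26.7 CPM unstressed, 20.2, 20.2 and 24.6 under ethanol and 35.3, 37.2 and 33.7 under NaCl, below every library of the other strains in each condition.

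CIT1 was higher before stress in YPS606 (0.82), Y10 (0.81) and YPS163 (0.66), ACO1 in YPS606 (0.85) and YPS163 (0.66), LSC2 in Y10 (0.74) and S288c (0.59), and IDH2 in S288c (0.59). The S288c calls were lost without replicate 1 (0.47 for both). CIT1 in YPS606 had 199, 205 and 155 CPM unstressed. Since each response is measured from the unstressed level of the same libraries, the unstressed differences and the differences in response are not independent of each other.

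Other genes of the pathway were described from lists. Of 13 further genes of the mitochondrial cycle and of pyruvate entry, 6 rose in the mean ethanol response and 5 in the mean NaCl response, where 29.8% and 18.8% of all genes did, with medians of 0.36 and 0.50. All 4 succinate dehydrogenase genes, whose enzyme links the cycle to the respiratory chain, rose in both, SDH4 most (log2 1.62 under ethanol and 1.64 under NaCl). CIT3, a minor mitochondrial citrate and methylcitrate synthase, rose by 2.02 under ethanol.

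Of 7 isozymes that act outside the mitochondrial cycle, 6 rose under ethanol and 1 fell, and 3 rose under NaCl, where 29.8% of all genes rose and 28.4% fell under ethanol and 18.8% rose under NaCl. CIT2, the peroxisomal citrate synthase and the classical retrograde target, rose most, by 4.49 on the log2 scale (from 2.23 in Y10 to 5.76 in YJM308). IDP3 (peroxisomal isocitrate dehydrogenase, 1.896) and PYC1 (pyruvate carboxylase, 1.79) followed. MDH2, the cytosolic malate dehydrogenase, rose under NaCl (1.69) and under ethanol (0.98). CIT2 and CIT3 are paralogs of CIT1, and MDH2 and MDH3 of MDH1, and RSEM divides reads that fit several genes. Part of a paralog's reads may thus be counted to its partner, but whether any reads were shared was not measured.

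Of 10 mitochondrial carrier genes, 3 rose and 3 fell under ethanol, near the shares of all genes (29.8% and 28.4%). The pyruvate carrier genes MPC3 (3.38), MPC2 (1.35) and MPC1 (0.83) rose. CTP1, the citrate carrier (-2.16), YHM2, a citrate and 2-oxoglutarate carrier (-2.001), and OAC1, the oxaloacetate carrier (-1.64), fell. Under NaCl 2 rose and 2 fell, again near those of all genes (18.8% and 20.9%), with MPC3 at 2.003.

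Of 8 HAP and RTG regulator genes, 2 rose under ethanol (HAP2 at 0.92 and HAP4 at 0.86) and 0 under NaCl, where 29.8% and 18.8% of all genes rose, so their count was not above that of all genes, and 0 fell in either. HAP4, the limiting subunit of the CCAAT-binding complex, had 148.7 to 168 CPM in unstressed YJM308 and 502 to 597 under ethanol. In S288c it had 30.5 to 32.1 CPM unstressed and 91.0 to 108 under ethanol, the 3 S288c libraries lying below those of every other strain before stress. HAP4 rose more than the mean under ethanol in YJM308 (log2 0.93), M1 (0.92) and S288c (0.80), and it was lower than the mean before stress in S288c (-1.50), M1 (-1.01) and YJM1129 (-1.0002). In unstressed S288c the 10 TCA cycle genes ran from -0.40 (KGD1) to 0.59 (LSC2) against the mean, with a median of 0.06. A link between HAP4 and the levels of these genes was not tested.

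Of 27 nuclear genes of the respiratory chain and ATP synthase, 24 were lower than the mean before stress in S288c (median -1.03) and 23 in YJM1129 (-0.77), where 5.67% and 4.68% of all genes were lower. In YPS163 25 were higher (median 0.91) and in YPS606 23 (0.83), where 8.37% and 5.86% of all genes were higher. The 10 TCA cycle genes had unstressed medians of 0.06 in S288c, -0.37 in YJM1129, 0.41 in YPS163 and 0.37 in YPS606, and the difference between the lists was not tested. In the mean response, 7 of the 27 rose under ethanol and 0 fell, a share of rises not above that of all genes (29.8%), led by NDI1 at 2.25, the internal NADH dehydrogenase that takes electrons from NADH made by the cycle, and 3 rose and 1 fell under NaCl, where 18.8% of all genes rose and 20.9% fell.

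All 7 glucose-repressed genes outside the cycle rose in the mean ethanol response (median 1.64) and 4 of 7 under NaCl (median 0.71), where 29.8% and 18.8% of all genes did, led by JEN1, a lactate and pyruvate carrier of the plasma membrane (2.91 and 2.74), with ICL1, isocitrate lyase, at 2.75 under ethanol. The summed CPM of these 7 genes in the S288c libraries ran from 83.0 to 136 over all conditions, and in the other 7 strains from 382 to 9834. Their part in the strain differences of the TCA cycle genes was not tested.

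Deletion of MSN2 and MSN4 had the largest effect of the 3 mutants on the TCA cycle genes under ethanol. In wild-type YPS606 of the second experiment, 7 of the 10 genes rose under ethanol and 1, ACO1, fell, where 28.6% of all genes rose and 28.9% fell. In the msn2/4 mutant 4 rose (CIT1, LSC1, MDH1 and LSC2) and ACO1 fell, where 25.2% of all genes rose. Over the 4 genotypes 26 of 40 pairs were higher and 3 lower, where 27.7% and 27.9% of all pairs were. The CPM of the 10 genes summed to 2574 ± 203 (SD, n = 4) before stress and 3765 ± 183 under ethanol in wild type. In msn2/4 they summed to 2361 ± 168 and 2371 ± 159, and these groups overlapped. The sums are not scaled by gene length and include ACO1. Its mean fell under ethanol from 1068 to 450.4 CPM in wild type and from 1014 to 444 CPM in msn2/4. The level sum in msn2/4 is therefore not a measure of the other genes.

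The response of each mutant was compared with that of wild type through an interaction term. All mutants share the wild-type libraries. Under ethanol 2 of the 30 pairs of gene and mutant were higher than wild type and 4 lower, where 2.82% and 3.87% of all pairs were. All 4 lower values were in msn2/4, where 7.88% of all genes were lower: MDH1 (log2 -1.22 ± 0.13, adjusted p = 2.4e-10), KGD1 (-0.93 ± 0.11, adjusted p = 9.6e-09), KGD2 (-0.66 ± 0.11, adjusted p = 4.3e-06) and CIT1 (-0.64 ± 0.15, adjusted p = 0.0010).

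MDH1 had 109, 112, 104 and 135 CPM in unstressed wild type and 469, 423, 418 and 428.5 under ethanol. In msn2/4 it had 94.0, 90.4, 118 and 97.4 CPM before stress and 160, 153, 168 and 171 under ethanol. The genotypes overlapped before stress and stood far apart under ethanol, where MDH1 rose 3.78-fold in wild type and 1.63-fold in msn2/4.

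KGD1 reached 465, 438, 422 and 408 CPM under ethanol in wild type and 201, 228, 207 and 215.5 in msn2/4. KGD2 reached 278, 277, 254 and 271 CPM in wild type and 146.5, 158, 158 and 151 in msn2/4. The genotypes did not overlap for either subunit of 2-oxoglutarate dehydrogenase. CIT1 reached 842, 789.5, 789 and 768 CPM in wild type and 391, 458, 382 and 363 in msn2/4, again without overlap.

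The MDH1 and KGD1 calls were kept in every refit. CIT1 was lost without replicate 3 (log2 -0.52, adjusted p = 0.042) and KGD2 without replicate 1 (-0.58). All 4 genes have an AGGGG match in the windows printed above, and so do IDH2, LSC1, LSC2 and FUM1, whose responses in msn2/4 were not called different from wild type (log2 -0.52, -0.26, -0.27 and -0.40). IDH1, which has no match, had a difference of -0.21. A link between these matches and the msn2/4 differences was not tested.

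The fall of ACO1 changed least in msn2/4 (log2 0.06 ± 0.20). Under ethanol ACO1 had 475, 407, 481 and 439 CPM in wild type and 456, 544.5, 419 and 355 in msn2/4, with overlapping values. In skn7 it had 449, 758, 633 and 787 CPM and in yap1 397, 722, 691 and 817, replicate 1 being the lowest in each. The fall of ACO1 was smaller in both by values that edgeR's quasi-likelihood test did not call (0.63 ± 0.20, adjusted p = 0.041 in skn7, and 0.75 ± 0.20, adjusted p = 0.013 in yap1). Without replicate 1 both were called, at 0.80 and 0.90, and DESeq2's Wald test called that of yap1 (0.74).

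In yap1 2 genes rose more under ethanol than in wild type, where 2.09% of all genes did: CIT1 (log2 0.72 ± 0.15, adjusted p = 0.00090) and IDH2 (0.60 ± 0.15, adjusted p = 0.0068). CIT1 reached 858, 1066, 1173 and 1228 CPM in yap1, each above the 4 wild-type libraries. All 10 differences of yap1 from wild type were above 0, with a median of 0.37, while that over all genes was 0.01. The CIT1 call was lost without replicate 3 or 4 (0.69 and 0.61), and the IDH2 call without replicate 2, 3 or 4 (0.46 to 0.63) and with DESeq2's size factors. With those size factors the calls over all mutants were 1 higher and 4 lower. LSC2 differed least in yap1 (0.17 ± 0.12). In skn7 0 of the 10 genes were called different under ethanol by either edgeR's test or DESeq2's Wald test. Over all mutants 2.82% of all pairs were higher and 3.87% lower. The share for skn7 alone is not given here, so 0 of 10 is not read as a result about these genes. In edgeR's test 2 genes had an unadjusted p under 0.05, a count for which no share of all genes is given. The smallest value in skn7 was that of IDH1 (0.02 ± 0.13).

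**Figure D5:**
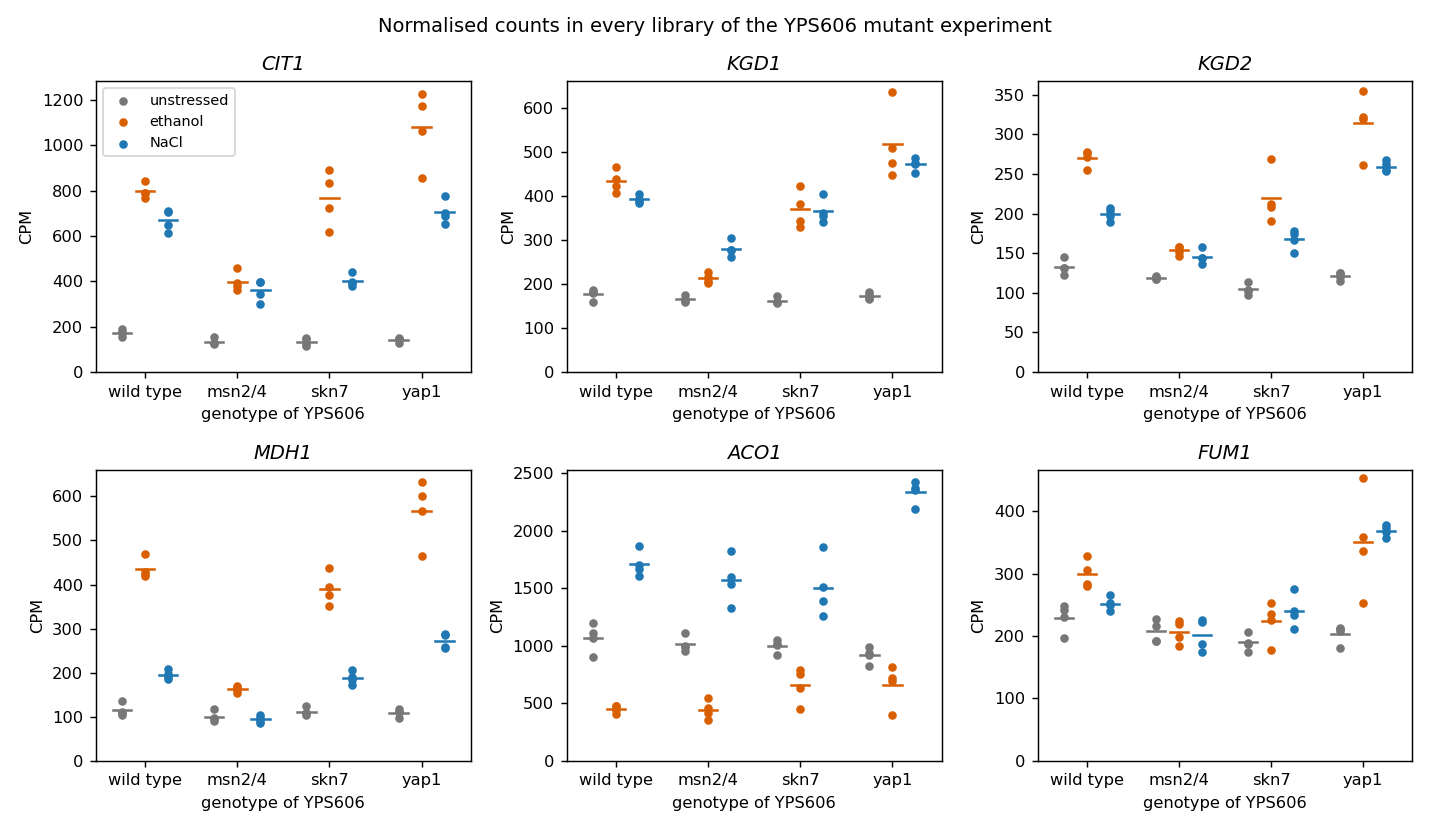
CPM of CIT1, KGD1, KGD2, MDH1, ACO1 and FUM1 in each library of wild-type YPS606 and of the msn2/4, skn7 and yap1 mutants, unstressed, under ethanol and under NaCl; points are libraries and bars the group means. Under ethanol the msn2/4 libraries of MDH1 lie between 153 and 171 CPM and those of wild type between 418 and 469.

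Under NaCl, in wild type 8 of the 10 genes rose, where 26.7% of all genes did, and in yap1 all 10 rose, where 25.5% of all genes did. Over the 4 genotypes 33 of 40 pairs were higher and 0 lower, where 24.5% and 25.3% of all pairs were. Against wild type, 1 of the 30 pairs was higher and 1 lower, where 3.85% and 5.04% of all pairs were. DESeq2's Wald test gave 2 higher and 1 lower, adding ACO1 in yap1 (0.69).

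The lower one was MDH1 in msn2/4 (log2 -0.85 ± 0.13, adjusted p = 2.3e-06), where 3.46% of all genes were lower. MDH1 had 209, 190, 186.5 and 197 CPM under NaCl in wild type and 85.6, 103.5, 96.6 and 91.1 in msn2/4, where its NaCl and unstressed libraries overlapped. It was the only one of the 10 genes called different in msn2/4 under both stresses, and its NaCl call was kept in every refit. IDH1 differed least in msn2/4 (log2 -0.0046 ± 0.13), with 349, 423, 356 and 413.5 CPM under NaCl against 434, 418, 414 and 391 in wild type.

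The higher one was FUM1 in yap1 (log2 0.73 ± 0.15, adjusted p = 0.00031), where 5.85% of all genes were higher. FUM1 had 378.5, 373, 368 and 357 CPM under NaCl in yap1 and 265.5, 249, 240.2 and 254 in wild type, without overlap, while before stress it had 180.4, 211, 212 and 208.5 in yap1 and 230.3, 197, 242 and 248 in wild type. Without replicate 3 its adjusted p was 0.012. LSC2 differed least in yap1 (0.08 ± 0.12). In skn7 0 of the 10 genes were called by edgeR's quasi-likelihood test and 0 by DESeq2's Wald test. Over all mutants 3.85% of all pairs were higher and 5.04% lower. The share for skn7 alone is not given here, so 0 of 10 is not read as a result about these genes. In edgeR's test 2 genes had an unadjusted p under 0.05, without a share of all genes to set beside it. The largest difference in skn7 was that of CIT1 (-0.37 ± 0.15, adjusted p = 0.057 in edgeR's test) and the smallest that of LSC2 (0.01 ± 0.12).

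CIT1 had 380.5, 397, 393 and 443 CPM under NaCl in skn7 and 647, 710.0, 615 and 707 in wild type. These groups did not overlap, and the unstressed skn7 libraries also lay below those of wild type, at 152, 145, 123 and 117 CPM against 177, 154, 170.5 and 191. Before stress 0 of the 30 pairs of gene and mutant were called higher or lower, where 1.29% and 0.644% of all pairs were. DESeq2's Wald test also called 0. Counted at an unadjusted p under 0.05 in edgeR's test, 10 of the 30 pairs of gene and mutant differed before stress, 27 of the 30 values lying below 0. The share of all genes at that unadjusted p is not given here, so this count cannot be set against it. All mutants were compared with the same unstressed wild-type libraries, so these values are not independent of each other. The lowest adjusted p was that of KGD2 in skn7 (log2 -0.35 ± 0.076, adjusted p = 0.0010), below the 1.5-fold limit.

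Of the 13 further genes of the cycle and of pyruvate entry, 3 succinate dehydrogenase genes rose less under ethanol in the msn2/4 mutant, where 7.88% of all genes were lower. There SDH4 (log2 -1.21), SDH1 (-0.99) and SDH3 (-0.98) were lower than in wild type, and SDH2 (-0.51) was not called. Of the 27 respiratory chain and ATP synthase genes 8 were lower there and 0 higher, where 7.88% and 5.18% of all genes were. In yap1 SDH2 (1.302) and SDH1 (1.18) rose more under ethanol. HAP4 rose more under ethanol in skn7 (1.03) and yap1 (0.93) than in wild type, and 0 of the 8 HAP and RTG genes were called in msn2/4. CIT2 was not called different from wild type in any mutant under ethanol, and under NaCl it was lower in skn7 (-1.39) and yap1 (-0.91) and higher in msn2/4 (0.59).

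YPS606 was measured in both experiments. Side by side, without a test between the fits, CIT1 rose by a log2 of 1.68 under ethanol in the strains and 2.21 in the mutant experiment, ACO1 changed by -1.83 and -1.25, and MDH1 rose by 1.52 and 1.92. Under NaCl CIT1 rose by 1.82 and 1.95. The ethanol values of the strain experiment include replicate 3 of YPS606, the library with the lowest TMM factor there.

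The genes whose mean log2 levels followed the mean profile of the 10 most closely were named by Pearson's r over group means, as a description without a test. Over the 24 groups of strain and treatment they were YKL066W (r = 0.92), LAP2 (0.92), which encodes an aminopeptidase, and SPG5 (0.90), required for survival in stationary phase, among 5380 genes. Over the 12 groups of genotype and treatment they were TMH11 (0.99), YNK1, nucleoside diphosphate kinase (0.98), and LAP2 (0.98), among 5204 genes. The groups share treatments, and in the mutants also the strain. Within the 10, LSC1 followed the mean profile of the 10 most closely over the strains (r = 0.93) and ACO1 least (0.39), and ACO1 was also last in the mutants (0.27). That mean profile includes the gene itself, so these r values are not those of independent profiles.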

How the data were processed

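RNA was sequenced as poly(A)-selected, single-end libraries. According to the study's methods and the submitters' notes, the authors trimmed reads with Trimmomatic, made a reference for each wild strain from its own variants with Bowtie2 (2.3.4.1) and GATK, mapped with STAR (2.6.1) and quantified with RSEM (1.3.1). The deposited values are RSEM expected counts per gene, which need not be whole and divide reads that match several genes. Whether counting used strand is not given in the sources used here.

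Expected counts were rounded to whole numbers and the 2 experiments were fitted separately. Genes were kept if any group's mean reached 1 CPM (counts scaled to a common library size), libraries were scaled by TMM, and edgeR 4.0.16 (R 4.3.3) was used with its quasi-likelihood test on group plus replicate, as in the study's methods. Replicates were made into libraries and sequenced as blocks, and each culture was split over the treatments. The deviations of libraries with the same number correlated at a mean of 0.075 (same culture) and 0.063 (other culture) in the strains, against -0.032 for other numbers, and at 0.090, 0.069 and -0.024 in the mutants. P-values were adjusted by Benjamini-Hochberg over all genes tested, and a call needed a 1.5-fold change or more with an FDR below 0.01. SE is the absolute log2 change divided by the square root of the F statistic. The common biological coefficient of variation was 0.157 in the strains and 0.111 in the mutants, and the median library held 11859155 and 13607844 counts. On counts simulated for the ethanol response of S288c (5818 genes), 92.0% of genes changed by a log2 of 1 were recovered, and for that of wild-type YPS606 (5594 genes) 100%. In each simulation 50 genes were changed at each size of change, with the same coefficient of variation for all genes and no effect of replicate. Wider change over the genes and a spread that differs by gene, as in real responses, were not simulated. The other comparisons were not simulated.

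All 10 genes are named. Values per sample are given for those with the largest and smallest change in each comparison, and up to 3 called genes with the largest change are named from each list, with further genes chosen after their values were seen. Results for 1 gene of the lists are not reported here. The rule for the 10 genes uses no measured value, but they and the lists were chosen with earlier results of these data known. Alternatives were no replicate block, DESeq2 1.42.0 (Wald test, or its size factors in edgeR), other filters and thresholds, the current edgeR method, and leaving out each replicate. Python 3.11.15, pandas 2.3.3, numpy 2.4.6 and matplotlib 3.10.9 were used.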

Additional observations from a re-analysis of the deposited data

Results flagged for a closer look

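Differences between strains in the same stress response were tested against the mean of the 8 strains, and the called values are collected here as log2 differences. Under ethanol, S288c was lower for LSC2 (-1.37), IDH2 (-1.33), ACO1 (-1.08), LSC1 (-1.07), MDH1 (-1.03), IDH1 (-0.74) and CIT1 (-0.72). YJM308 was higher for IDH2 (1.69), ACO1 (1.56), CIT1 (1.46), IDH1 (1.07) and MDH1 (0.89). CIT1 was higher in M1 (0.79) and lower in YPS163 (-0.74) and YPS606 (-0.68), and LSC2 was lower in M1 (-0.64) and higher in M22 (0.62).

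Under NaCl, YJM308 was higher for IDH1 (1.02), ACO1 (0.87) and IDH2 (0.83), and M1 was higher for IDH1 (0.88), ACO1 (0.82) and IDH2 (0.67) and lower for CIT1 (-0.67). Y10 was lower for IDH1 (-0.92) and ACO1 (-0.71), YJM1129 for IDH2 (-0.59) and YPS606 for ACO1 (-0.59), and M22 was higher for CIT1 (0.66).

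Between mutants and wild type, the ethanol response was lower in msn2/4 for MDH1 (-1.22), KGD1 (-0.93), KGD2 (-0.66) and CIT1 (-0.64) and higher in yap1 for CIT1 (0.72) and IDH2 (0.60). The NaCl response was lower in msn2/4 for MDH1 (-0.85) and higher in yap1 for FUM1 (0.73).

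Single libraries stood apart from the other 3 of their group in 4 of the 120 groups of 4 libraries, a test that chance passes in about 5 of 100 groups. LSC1 had 390.5 CPM in replicate 3 of yap1 under NaCl, against 433 to 441 in the others. LSC2 had 99.7 CPM in replicate 3 of skn7 under NaCl, against 104.6 to 104.8. IDH1 had 182 CPM in replicate 3 of unstressed msn2/4, against 155 to 159, and FUM1 had 180.4 CPM in replicate 1 of unstressed yap1, against 209 to 212. Groups of the strain experiment held fewer than 4 libraries and were not tested in this way.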

How the results depend on the processing

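Of 257 called values of the 10 genes, 222 kept their call in every refit and 35 lost it in at least 1, and of 343 uncalled values 33 were called in at least 1. No called value changed sign. Without the replicate block all 257 calls were kept and 1 was gained, so the block changed no other call. The current edgeR method changed 0 calls.

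The fold limit moved the counts most. At 2-fold, the genes higher in the mean response fell to 3 under ethanol and 5 under NaCl, and those between ethanol and NaCl to 0 higher and 1 lower. At that limit 35 values rose within strains under NaCl and 17 within genotypes under ethanol. Against the mean of the strains, 4 were higher and 5 lower under ethanol, 1 higher and 0 lower under NaCl, and 0 higher and 1 lower before stress. Against wild type, 0 were higher and 1 lower under ethanol, and 0 higher and 0 lower under NaCl. With no fold limit, 24 unstressed values were higher and 18 lower among strains, 1 was lower among mutants, and 3 were higher among mutants under NaCl. At an FDR of 0.05, 4 values were higher among mutants under ethanol and 2 under NaCl.

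With DESeq2's Wald test 2 values were higher among mutants under NaCl, and with its size factors 1 under ethanol. Without a filter on low counts 1 gene was higher under ethanol than under NaCl. Without Y10 NaCl replicate 1, 3 values were lower than the strains' mean under NaCl. Leaving out each replicate gave 1 to 2 genes higher under ethanol than NaCl, 3 to 6 values higher and 2 to 4 lower than the strains' mean under NaCl, and 0 to 4 and 0 to 2 values higher among mutants under ethanol and NaCl. For these changes of count the cause was not tested. The median of all genes moved by up to 0.14 (log2) in the strains without a filter, 0.12 without replicate 3, and 0.11 with DESeq2's size factors.

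Each group rests on 2 to 4 libraries, each strain and deletion on 1 background and each stress on 1 time point. The strain values depend on references made per strain, and promoter letters come from S288c alone.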
